A study of Mus musculus with 10 samples.

Results

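Kidney transcripts of 6 genes of the thyroid hormone pathway were followed by name in a table of 55952 mouse genes, namely Dio1, Thra, Thrb, Thrsp, Klf9 and Me1. All 6 were in the table, and all 6 were among the 15264 genes whose mean reached 0.5 FPKM. FPKM counts the sequenced fragments per length of gene and per total sequenced in the library. The libraries came from kidneys of C57BL/6 mice, a common inbred strain, kept at an altitude of 400 m (control, 5 libraries) or 4200 m (hypoxia, 5 libraries), in both groups for 30 days and with no other treatment or genetic change in the labels. Age and sex of the animals were not given in the sources used here, and nothing states that each library came from its own mouse, so the spread given below is that between libraries. The mice of a group shared their altitude, and any difference of site that came with altitude cannot be told apart from it. The 6 genes were chosen by their names and with knowledge of their FPKM values in the comparison of hypoxia and control, so their differences between these groups are given as a description. Their place in the fit of all genes is stated on the same footing, with no p-value, and nothing is supported with it.

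Thyroid hormone reaches the tissues mainly as thyroxine, a precursor that deiodinases convert into the active triiodothyronine by removing an iodine atom from its outer ring, or inactivate by removing one from the inner ring. Type 1 deiodinase, the product of Dio1, is most abundant in liver, kidney and thyroid, and its gene is itself raised by the hormone. The receptors, encoded by Thra and Thrb, sit on DNA with a retinoid X receptor as partner, hold corepressors when empty and exchange them for coactivators when triiodothyronine binds. Thrsp, Me1 and Klf9 are long-known targets of the receptors, the first and the second in fat synthesis and the last as a transcription factor.

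The 10 libraries held 16561672 to 17845464 reads assigned to genes, recovered from the FPKM values. The 6 genes rested on at least 118 reads in every library, a count reached by Thrsp, and on up to 13203 for Me1. Hypoxia replicates 4 and 5 stood apart from the other libraries. In hypoxia replicate 4 the 6 markers of adrenal cortex summed to 1045 FPKM, against at most 1.68 FPKM in controls and hypoxia replicates 1 to 3, and in hypoxia replicate 5 the 6 markers of B cells summed to 360 FPKM, against at most 2.21 FPKM in those libraries. Hypoxia replicate 5 also held Ctrb1 of exocrine pancreas (15.4 FPKM, at most 0.0680 FPKM elsewhere). Hypoxia replicate 2 held Alb of liver (45.1 FPKM, at most 5.48 FPKM elsewhere). Each of these lists also held a marker that went otherwise. Cela1 of the pancreas list was lowest in hypoxia replicate 5 (17.7 FPKM). Cyp2e1 of the liver list was highest in hypoxia replicate 4 (659 FPKM, against 521 FPKM in hypoxia replicate 2). The 12 proximal tubule markers summed to 27767 to 33541 FPKM in controls and to 27099, 24084, 13347, 14477 and 14828 FPKM in hypoxia replicates 1 to 5, all below the controls. Most of this sum was Kap, an androgen-regulated gene, at 22476 to 28475 FPKM in controls and at 22616, 19187, 8239, 10251 and 12397 FPKM in hypoxia. The other 11 markers, summed apart after the values were seen, came to 4229 to 5392 FPKM in controls, 4226 to 5108 FPKM in hypoxia replicates 1 to 4 and 2432 FPKM in hypoxia replicate 5. Of the 12 markers, Kap and Slc22a6 were called, both lower. The labels' protocol speaks of retinas, but the 8 retina markers summed to no more than 0.656 FPKM in any library, with Rcvrn, Crx and Nrl at 0 in all. Of the 6 thyroid gland markers, Tg had at most 15 reads in a library, in hypoxia replicate 5, and Nkx2-1 had none. The 6 summed to 10.5 to 13.1 FPKM in controls and to 9.87 to 12.6 FPKM in hypoxia, most of it Pax8. Values without hypoxia replicates 4 and 5 are given below for the 6 genes and, for other genes, where they end a call or move a called value by over 1.5 times, and in some further cases.

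Dio1, the deiodinase, was lower in every hypoxia library than in any control. Its level was 21.1, 20.0, 23.7, 23.5 and 25.1 FPKM in control replicates 1 to 5, and 8.63, 8.61, 5.86, 5.15 and 3.98 FPKM in hypoxia replicates 1 to 5. The groups lay far apart, and the mean went from 22.7 ± 2.07 to 6.45 ± 2.09 FPKM (SD, n = 5 each), which is 28.4% of the control level. On the scale of log2(FPKM + 0.5), which understates changes of low genes, the difference of hypoxia minus control was -1.79 (SE 0.186), and -1.52 (SE 0.129) without hypoxia replicates 4 and 5. The sum of all 12 proximal tubule markers, most of it Kap, was below every control in all 5 hypoxia libraries, lowest in replicate 3. The sum of the 11 without Kap was lowest in replicate 5, where Dio1 was lowest too. The median log2 fold change of the 12 markers was -0.25, beside 0.012 for all tested genes. Without hypoxia replicates 4 and 5 the median of the 12 was 0.0047. Slc22a6 was at 198.9 to 305.0 FPKM in controls and at 78.9 to 146.7 FPKM in hypoxia. Slc5a2 was at 92.4 to 156.5 FPKM in controls and at 32.8 to 89.8 FPKM in hypoxia. The groups overlapped in each of the other markers. The part of proximal tubule content in the Dio1 values was not tested. Hypoxia replicates 1 to 3 had Dio1 at 33.9% of the control mean, with the sum without Kap inside and the sum of all 12 below the control range. In bulk tissue, fewer cells of a type and less RNA per cell cannot be told apart.

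The gene (ENSMUSG00000034785) lies on chromosome 4 from 107291465 to 107307169 on the minus strand, in the GRCm38 coordinates of the deposited table. Its product is a selenoprotein, in which the amino acid selenocysteine at the catalytic centre is encoded by a stop codon that the ribosome reads through. The GENCODE annotation places this codon at bases 107297700 to 107297702, in exon 2 of 4 of the transcript Dio1-201, as codon 126 of 257. It is shown here, because the selenocysteine supply is described further on, with 30 bases of coding sequence on either side, 5′ to 3′ on the coding strand and with the TGA codon in capitals.

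Dio1-201: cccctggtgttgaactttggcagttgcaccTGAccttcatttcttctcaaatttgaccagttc

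**Figure D1:**
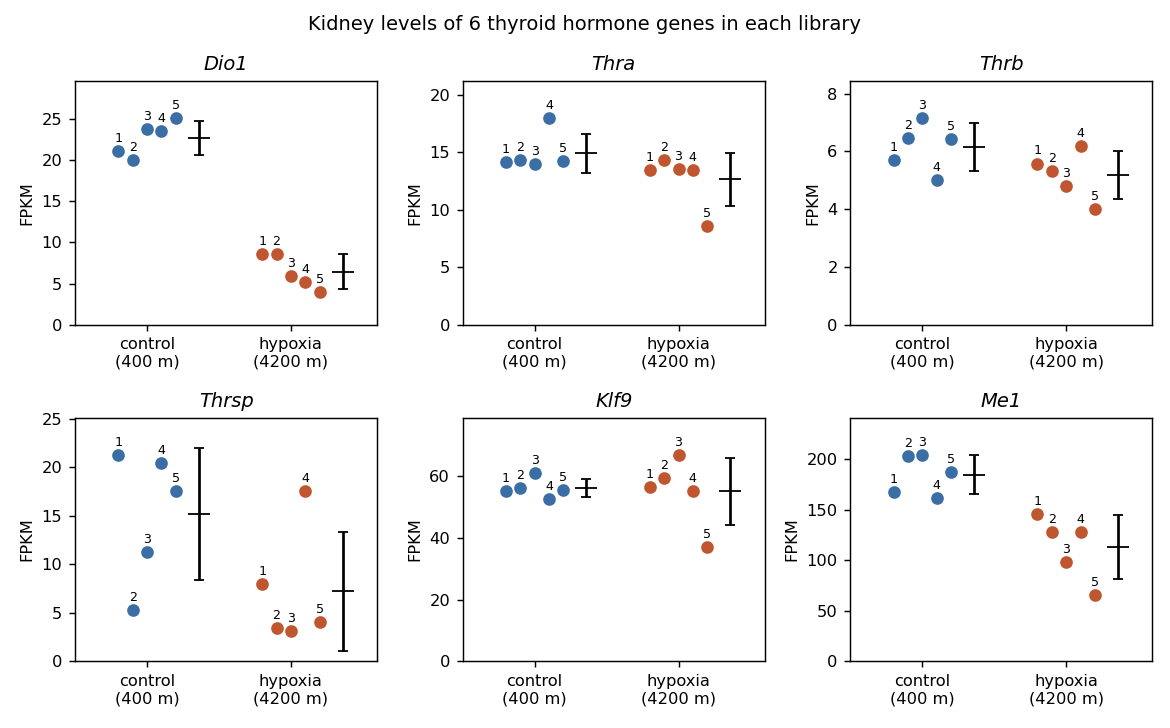
FPKM (linear axes from 0) of the 6 genes in each library, with the replicate number above each point, control in blue and hypoxia in orange, and the mean with its SD in black beside each group. The 5 hypoxia points of Dio1 (3.98 to 8.63 FPKM) and of Me1 (65.7 to 145.5 FPKM) lie below all 5 controls, whereas the points of the other 4 genes overlap.

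The other deiodinases were near the limit of detection and were not tested; they are named here after their values were seen. Dio2, which makes triiodothyronine within cells such as those of brown fat, had 24, 25, 5, 55 and 43 reads in control replicates 1 to 5 and 1 to 9 reads in the hypoxia libraries. Control replicate 3, with 5 reads, fell inside the hypoxia range. That library was also the control with no reads of Ucp1, the uncoupling protein that defines brown fat, of which the other 4 controls had 115 to 428 reads and the hypoxia libraries 0 to 3. The part of brown fat in the Dio2 reads was not tested. Dio3, which inactivates the hormone, had 0 to 4 reads in controls and 1 to 15 in hypoxia, and the groups overlapped.

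The receptors did not separate the groups. Thra was at 14.1, 14.3, 14.0, 18.0 and 14.2 FPKM in control replicates 1 to 5 and at 13.4, 14.3, 13.5, 13.4 and 8.62 FPKM in hypoxia replicates 1 to 5. Hypoxia replicate 5 was low and control replicate 4 high, while the other 8 libraries lay between 13.4 and 14.3 FPKM; hypoxia replicate 2 was the hypoxia library within the control range, and the other 4 lay below it. The means were 14.9 ± 1.70 and 12.7 ± 2.29 FPKM (SD, n = 5 each), a log2 difference of -0.24 (SE 0.133) that shrank to -0.11 (SE 0.0879) without hypoxia replicates 4 and 5. Thrb was at 5.71, 6.47, 7.15, 5.01 and 6.43 FPKM in controls and at 5.58, 5.32, 4.80, 6.20 and 4.002 FPKM in hypoxia. Its means of 6.15 ± 0.817 and 5.18 ± 0.829 FPKM differed by -0.23 on the log2 scale (SE 0.120), and only hypoxia replicates 3 and 5 fell below the lowest control.

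The gene lengths behind FPKM were 4614 bases for Thra and 7403 bases for Thrb, with values per gene rather than per transcript. Of the receptor genes, Thra had the higher level per length, a comparison that does not use the contrast between groups. It exceeded Thrb in 10 of 10 libraries, by 1.95 to 3.59 times in FPKM, and the mean log2 ratio was 1.28 ± 0.253 (SD, n = 10), a 2.43-fold excess (exact paired permutation test over sign changes, two-sided, p = 0.00195, the smallest value this design allows). The mean ratio was 2.43 in controls and 2.43 in hypoxia, where 5 libraries each allow no p below 0.0625. Dio1 changed its place relative to Thra. In controls Dio1 was 1.31 to 1.76 times as high as Thra in 5 of 5 libraries, and in hypoxia it was 0.383 to 0.643 times as high in 5 of 5. Dio1 stayed above Thrb in hypoxia replicates 1 to 3 and was below it in hypoxia replicate 4 and, by a narrow margin, 5.

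**Figure D2:**
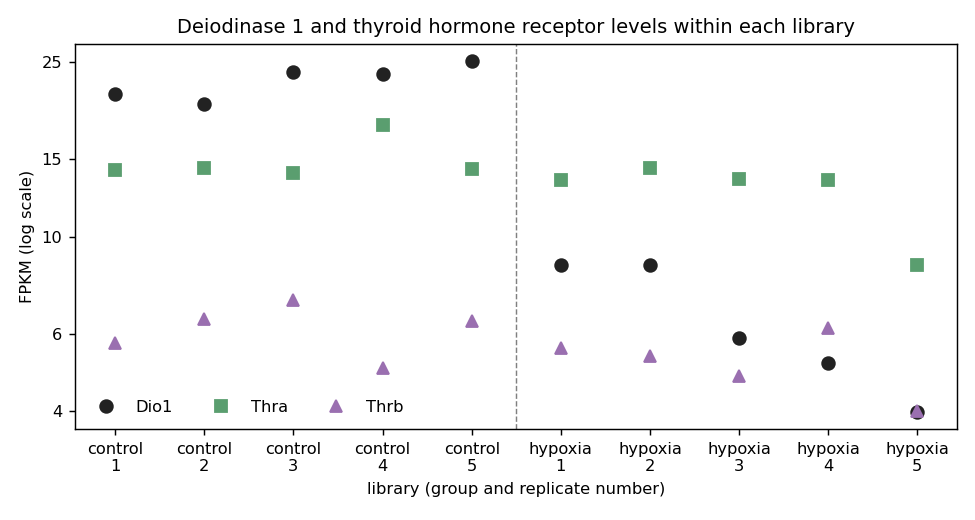
FPKM (log axis) of Dio1 (black circles), Thra (green squares) and Thrb (purple triangles) in each of the 10 libraries, with controls left of the dashed line. Dio1 lies above Thra in all 5 controls and below it in all 5 hypoxia libraries, while Thra stays above Thrb throughout.

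The value of Thra may include reads of its neighbour Nr1d1, since both genes overlap tail to tail. Thra (ENSMUSG00000058756) runs on the plus strand of chromosome 11 from 98740638 to 98769006. Nr1d1, which encodes the clock repressor REV-ERB alpha, runs on the minus strand from 98767932 to 98775333. Their spans share 1075 bases, and their exons 263 bases, 5.70% of the exon bases of Thra. The TruSeq kit named in the labels does not mark strand, so reads from the shared stretch cannot be told apart. For Nr1d1, control libraries averaged 24.1 ± 2.02 FPKM and hypoxia libraries 20.9 ± 5.98 FPKM (SD, n = 5 each; log2 fold change -0.24, SE 0.169, limma adjusted p = 0.356). Thrb (ENSMUSG00000021779, chromosome 14 from 17660261 to 18038090) shared no exon base with another gene. Its neighbour Nr1d2, the other REV-ERB gene, was at 23.7 ± 3.57 and 30.6 ± 4.91 FPKM (log2 fold change 0.36, limma adjusted p = 0.116).

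Me1, which encodes the cytosolic malic enzyme that supplies NADPH for fatty acid synthesis, was the most abundant of the 6 genes in 10 of 10 libraries. It was at 167.6, 203.2, 204.2, 161.8 and 186.9 FPKM in control replicates 1 to 5 and at 145.5, 127.5, 98.7, 127.9 and 65.7 FPKM in hypoxia replicates 1 to 5. No hypoxia library reached the lowest control. The mean went from 184.8 ± 19.6 to 113.1 ± 31.4 FPKM (SD, n = 5 each), or to 61.2% of control, with a log2 difference of -0.75 (SE 0.197). Without hypoxia replicates 4 and 5 the difference was -0.59 (SE 0.134). As with Dio1, hypoxia replicate 5 was the lowest library. Me1 (ENSMUSG00000032418) lies on the minus strand of chromosome 9 from 86581371 to 86695953.

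Of the 6 genes, Dio1 and Me1 were past an adjusted p of 0.05 in the fit of all genes (limma with Benjamini-Hochberg adjustment), both lower in hypoxia, and the same 2 genes had groups that did not overlap. Over all 15264 tested genes 11.5% were past that threshold, 3.66% higher and 7.79% lower, and 14.2% had groups that did not overlap, 5.68% higher and 8.54% lower. Without hypoxia replicates 4 and 5 Dio1 and Me1 were again past it and the other 4 genes were not, beside 12.3% of all genes tested there, 4.53% higher and 7.75% lower. Since the genes were chosen with this contrast known, nothing is read from their count against these shares. The split of all calls into 559 higher and 1189 lower moved to 782 and 927 when limma voom was run on the recovered reads. Dio1 kept its call without any of the 10 libraries in turn. Me1 lost it without control replicate 1, 2, 3 or 5 and without hypoxia replicate 3 or 4, with log2 differences between -0.71 (without control replicate 3) and -0.81 (without hypoxia replicate 4) in those fits. The median log2 difference of the 6 genes was -0.50, against 0.012 for all tested genes, and -0.40 without hypoxia replicates 4 and 5. Because of the same choice, nothing is read from this median either.

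Thrsp, a small protein that promotes fatty acid synthesis in fat and liver, varied most within the groups. It was at 21.3, 5.29, 11.3, 20.4 and 17.5 FPKM in control replicates 1 to 5 and at 7.98, 3.42, 3.14, 17.6 and 4.03 FPKM in hypoxia replicates 1 to 5. Control replicates 2, 3 and 5 thus lay in the hypoxia range and hypoxia replicates 1 and 4 in the control range. The means were 15.2 ± 6.77 and 7.24 ± 6.12 FPKM (SD, n = 5 each), and the log2 difference was -1.16 (SE 0.493) with all libraries and -1.51 (SE 0.464) without hypoxia replicates 4 and 5, past the threshold in neither fit. Hypoxia replicates 2, 3 and 5 lay below every control.

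Fat markers are given beside Thrsp because fat tissue is known to express it. Of the 10 fat markers, 9 had a mean of at least 0.5 FPKM. Their sum was 214.7, 78.5, 115.0, 146.5 and 170.1 FPKM in control replicates 1 to 5 and 159.8, 80.9, 96.4, 688.8 and 148.8 FPKM in hypoxia replicates 1 to 5. Within the controls the lowest sum and the lowest Thrsp value were in replicate 2 and the highest of both in replicate 1, and within hypoxia the highest of both were in replicate 4. Elsewhere they parted: within hypoxia the lowest sum was in replicate 2 and the lowest Thrsp value in replicate 3, and hypoxia replicate 5 had a sum like that of control replicate 4 with Thrsp at 4.03 against 20.4 FPKM. Ucp1 and Cidea, the markers of brown fat in the list, differed between the groups. They summed to 26.0, 8.65, 0.534, 27.8 and 24.1 FPKM in control replicates 1 to 5 and to 0.0987 to 2.61 FPKM in hypoxia, while Adipoq, a marker of all fat, ranged from 6.17 to 13.8 FPKM in the control and from 4.66 to 39.7 FPKM in the hypoxia libraries. The part of fat tissue in the Thrsp values was not tested. In control replicate 3, with no Ucp1 reads, Dio1 and Me1 stood at 23.7 and 204.2 FPKM, above their control means. These are values of a single library, and the part of brown fat in the Dio1 and Me1 values was not tested.

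**Figure D3:**
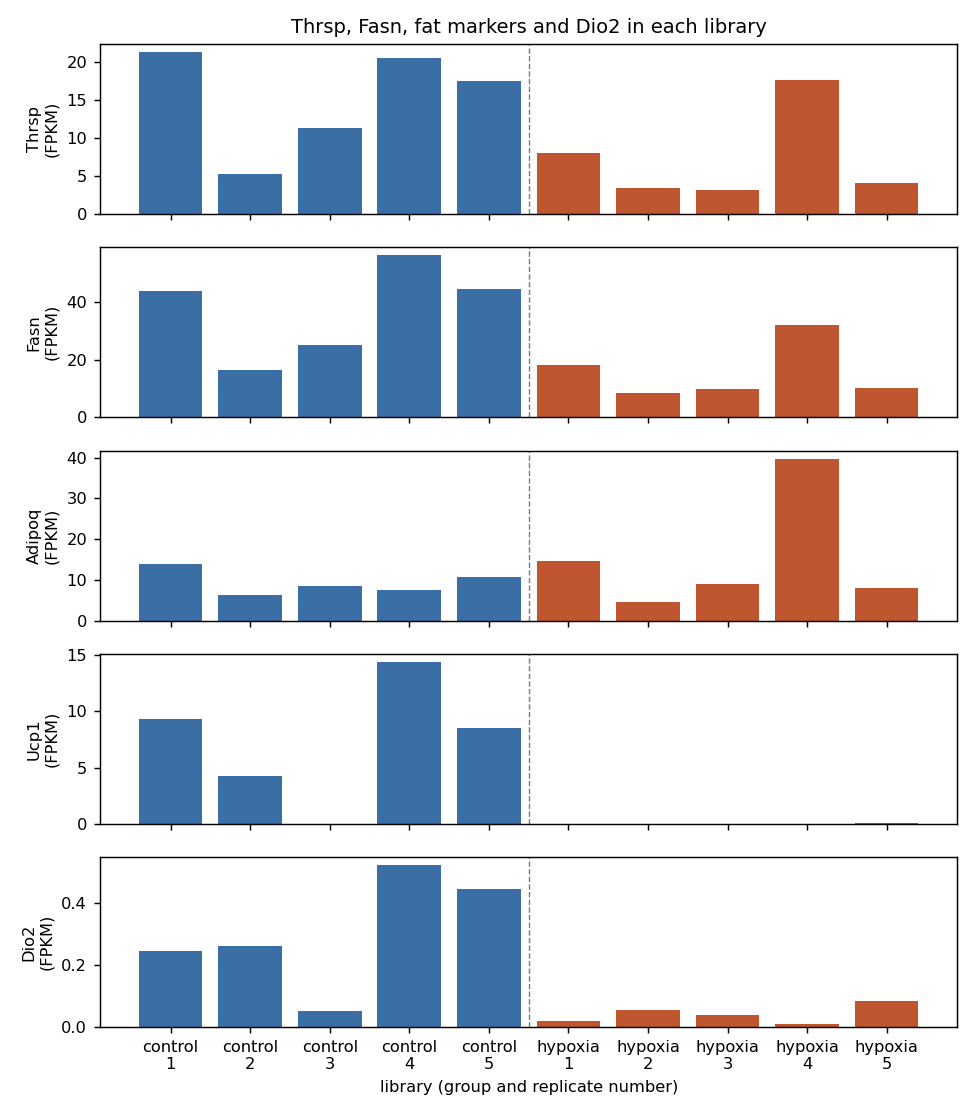
FPKM (linear axes from 0) of Thrsp, of the fatty acid synthase gene Fasn, of the fat marker Adipoq, of the brown fat marker Ucp1 and of Dio2 in each library, control in blue and hypoxia in orange. Thrsp and Fasn are both lowest among controls in replicate 2 and both highest among hypoxia libraries in replicate 4, where Adipoq reaches 39.7 FPKM. Ucp1 is listed at 0 to 0.101 FPKM in hypoxia and at 0 in control replicate 3.

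Klf9, a zinc finger transcription factor raised by thyroid hormone and by glucocorticoids, was the steadiest of the 6 genes in controls, with a coefficient of variation of 5.42%. It was at 54.9, 56.1, 60.9, 52.6 and 55.5 FPKM in control replicates 1 to 5 and at 56.4, 59.3, 66.7, 54.9 and 37.1 FPKM in hypoxia replicates 1 to 5. Hypoxia replicate 3 was above and hypoxia replicate 5 below every control. The means of 56.0 ± 3.03 and 54.9 ± 10.9 FPKM (SD, n = 5 each) differed by -0.053 on the log2 scale (SE 0.138). The sign turned without hypoxia replicates 4 and 5 (0.12, SE 0.0760), without hypoxia replicate 5 alone (0.081) and with limma voom on the recovered reads (0.016), so no direction can be given.

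By mean FPKM, a level per length, the order in controls was Me1, Klf9, Dio1, Thrsp, Thra and Thrb. Me1 and Klf9 held the first and the second place in 10 of 10 libraries. Thrsp did not differ beyond its spread from its neighbours in controls, as its range from 5.29 to 21.3 FPKM included that of Thra and met those of Dio1 and Thrb. In hypoxia the order was Me1, Klf9, Thra, Thrsp, Dio1 and Thrb, and the ranges of neighbours after Klf9 overlapped.

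RefSeq promoter windows (GRCm38.p6, 250 bases before to 50 after a start) were found for 5 of the 6 genes, all but Thra. The sequences upstream of both the RefSeq and the GENCODE start are shown for the pair that was lower in hypoxia, to set their composition side by side, 5′ to 3′ on the strand of the gene and with the GC box GGGCGG or its reverse complement in capitals. That of Dio1 is chr4:107307170-107307418 (minus strand, 249 bases) and that of Me1 is chr9:86695954-86696164 (minus strand, 211 bases).

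Dio1: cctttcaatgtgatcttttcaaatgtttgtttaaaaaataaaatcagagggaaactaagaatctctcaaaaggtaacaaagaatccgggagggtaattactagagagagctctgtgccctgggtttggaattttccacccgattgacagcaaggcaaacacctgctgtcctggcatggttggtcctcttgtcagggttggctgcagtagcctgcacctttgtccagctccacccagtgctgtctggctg
Me1: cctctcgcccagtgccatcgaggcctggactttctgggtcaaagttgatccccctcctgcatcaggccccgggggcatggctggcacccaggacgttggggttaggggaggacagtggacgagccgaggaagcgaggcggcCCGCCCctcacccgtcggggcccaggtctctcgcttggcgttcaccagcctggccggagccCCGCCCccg

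The Dio1 stretch holds 46.6% G and C and no GC box, the Me1 stretch 70.6% and 2 of them. Over the full window of 300 bases Me1 had 4 GC boxes at this start and 0 at a second RefSeq start, and Dio1 had 0. GGGCGG was found on either strand in 35.7% of all 32851 windows of 300 bases. The core sequence AGGTCA, to which receptors for thyroid hormone and many other nuclear receptors bind, was found on either strand in 16.3% of the windows, and in a direct repeat spaced by 4 bases (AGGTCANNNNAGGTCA) in 5 windows. Among the windows of the 5 genes it was present in 1 window of Thrb, once, and in none of Dio1, Me1, Thrsp and Klf9. No match says only that these letters are not in the window.

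The genes whose profiles over the 10 libraries were nearest to those of Dio1, Thrsp and Me1 were sought among 9945 protein-coding genes averaging 2 FPKM or more, by the root mean square difference of log2(FPKM + 0.5) after centring each gene. The libraries of 1 group share their group difference and the content of other tissues in hypoxia replicates 4 and 5, so the values only describe likeness. Nearest to Dio1 were Slc5a10, a sodium-coupled sugar transporter (0.18), Acy3, an aminoacylase (0.20), and Ldc1 (0.23). Slc5a10 went from 119.3 ± 22.7 to 34.0 ± 9.54 FPKM and Acy3 from 1052 ± 138.5 to 323.9 ± 102.5 FPKM (SD, n = 5 each). Nearest to Thrsp was Fasn, fatty acid synthase (0.21), and Scd1, a fatty acid desaturase, lay farther off (0.55). Nearest to Me1 were Arhgef19 (0.13), Gss, glutathione synthetase (0.13), and Nit1 (0.14).

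Among the other genes of the pathway, counted over lists of hormone handling, receptor partners, further target genes, lipid synthesis, Klf factors, glucocorticoid-responsive genes and selenoproteins, 17 of 106 tested genes (16.0%) were called, 6 higher and 11 lower, against 11.5% of all tested genes. Over all tested genes 3.66% were called higher and 7.79% lower, and these shares stand beside the counts of each list below. Without hypoxia replicates 4 and 5, 19 of 106 were called, 6 higher and 13 lower, against 12.3% of all. Their median log2 fold change was -0.065, and that of all tested genes 0.012. The lists were written with earlier results of these data known. The counts and adjusted p-values of their genes below therefore describe these data and are no independent support.

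In hormone handling 1 of 10 tested genes rose and 1 fell (median -0.20). Ttr, transthyretin, a carrier of thyroxine, fell from 126.2, 125.5, 110.0, 82.9 and 138.2 FPKM in control replicates 1 to 5 to 33.6, 42.7, 29.3, 22.4 and 12.4 FPKM in hypoxia replicates 1 to 5 (log2 fold change -2.12, SE 0.287, limma adjusted p = 0.00235). Liver makes much of the body's transthyretin, and the highest hypoxia value was in replicate 2, the library with the highest Alb. The part of liver transcripts in it was not tested. Slc7a5, a subunit of an amino acid transporter that also carries thyroid hormone, rose from 0.750 ± 0.135 to 3.72 ± 3.18 FPKM (SD, n = 5 each; log2 fold change 1.47, limma adjusted p = 0.0405). Its rise was largest in hypoxia replicates 4 and 5, at 4.97 and 8.79 FPKM, and the log2 fold change was 0.76 without them (adjusted p = 0.00850). Of the 10 fits that each omit a library it stayed called in the 4 without hypoxia replicate 1, 2, 3 or 5, and the adjusted p reached 0.0906 without hypoxia replicate 4.

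Of 16 tested receptor partners and coregulators, 2 rose and 1 fell (median 0.049). Rxrb, a retinoid X receptor, fell from 11.7 ± 0.649 to 8.93 ± 0.578 FPKM (SD, n = 5 each; log2 fold change -0.37, limma adjusted p = 0.00741). Gps2 and Hdac3, both subunits of the corepressor complex of the receptors, rose from 12.2 ± 0.824 to 15.9 ± 2.15 FPKM (0.35, adjusted p = 0.0360) and from 9.15 ± 0.821 to 11.1 ± 0.636 FPKM (0.27, adjusted p = 0.0373). The latter 2 calls were lost without hypoxia replicates 4 and 5, at an adjusted p of 0.0751 for Gps2 and 0.0956 for Hdac3, and in 6 of the 10 fits that each omit a library. Gps2 stayed called without control replicate 4 or hypoxia replicate 1, 2 or 5 (adjusted p up to 0.0939, without control replicate 1), and Hdac3 without control replicate 2 or hypoxia replicate 2, 3 or 5 (up to 0.0915, without control replicate 3).

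Of 16 further target genes tested, 0 rose and 3 fell (median -0.18), where 3.66% of all tested genes rose and 7.79% fell. Gpd2, the mitochondrial glycerol phosphate dehydrogenase and a classical target of thyroid hormone in liver, had the clearest difference among the listed genes. It was at 16.6, 17.3, 16.2, 20.3 and 16.5 FPKM in control replicates 1 to 5 and at 4.59, 5.27, 5.08, 5.76 and 6.50 FPKM in hypoxia replicates 1 to 5. Its log2 fold change was -1.59 (SE 0.0956, limma adjusted p = 2.74e-05), and -1.70 without hypoxia replicates 4 and 5 (adjusted p = 3.19e-05). Unlike Dio1, it was not lowest in hypoxia replicate 5. Atp2a2, the calcium pump of the endoplasmic reticulum, fell from 90.7 ± 8.86 to 66.4 ± 8.46 FPKM (SD, n = 5 each; -0.45, adjusted p = 0.0235), a call lost without control replicate 2 (adjusted p = 0.0564) or control replicate 5. Slc9a3, the sodium-proton exchanger of the proximal tubule, fell from 35.6 ± 2.37 to 29.0 ± 2.64 FPKM (-0.30, adjusted p = 0.0377), a call that stayed when hypoxia replicate 1 or 5 was omitted and was lost with any other library omitted (0.0985 at the highest, without control replicate 1). Its adjusted p was 0.0784 without hypoxia replicates 4 and 5.

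**Figure D4:**
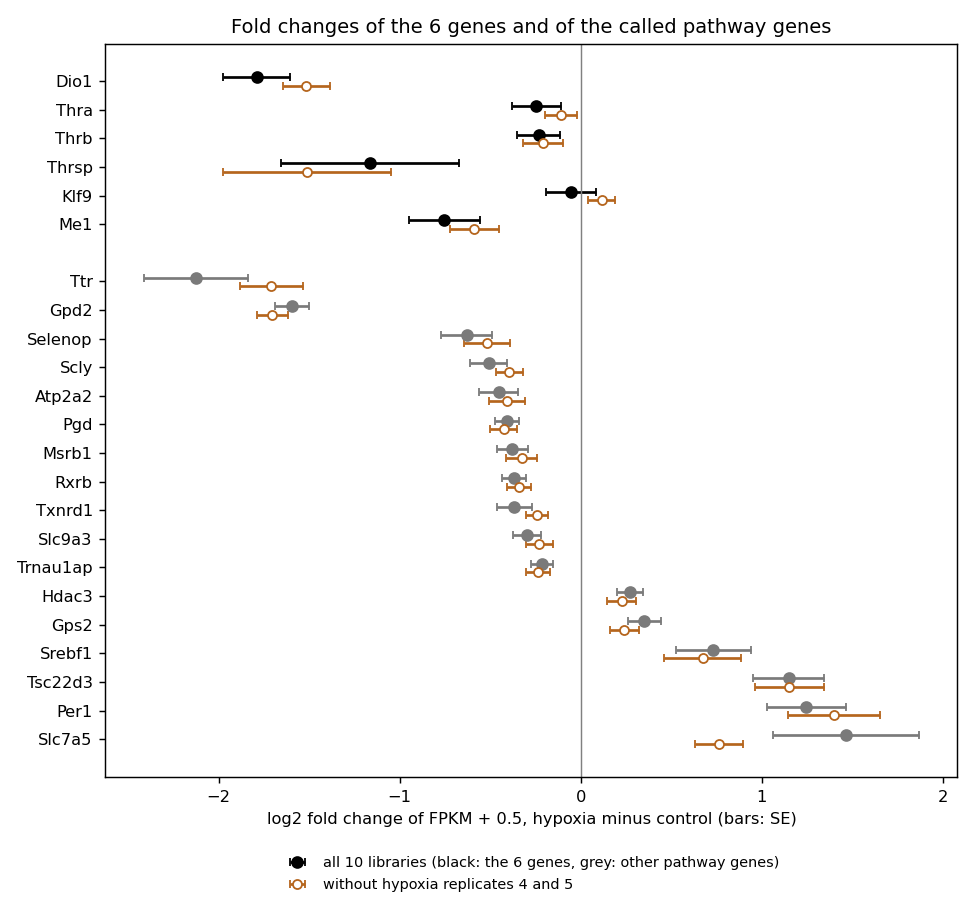
Log2 fold change of FPKM + 0.5 (hypoxia minus control, horizontal axis, bars show SE) of the 6 genes (black, above) and of the 17 called pathway genes (grey, below), with open brown points for fits without hypoxia replicates 4 and 5. Dio1 (-1.79) lies near Ttr (-2.12) and Gpd2 (-1.59), Klf9 lies on both sides of 0, and the point of Slc7a5 moves from 1.47 to 0.76.

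In lipid synthesis and NADPH supply, around Thrsp and Me1, 1 of 16 genes rose and 1 fell (median -0.30), and 0 rose and 4 fell without hypoxia replicates 4 and 5. Pgd, an NADPH-producing enzyme of the pentose phosphate pathway, fell from 16.9 ± 0.924 to 12.7 ± 0.928 FPKM (SD, n = 5 each; log2 fold change -0.41, limma adjusted p = 0.00614). Srebf1, which encodes a transcription factor that drives lipid synthesis, rose from 9.67 ± 2.05 to 16.8 ± 5.01 FPKM (0.73, adjusted p = 0.0455). That call stayed when control replicate 4 or hypoxia replicate 2 or 5 was omitted and was lost with any other library omitted (up to 0.110, without control replicate 2). It was also lost without hypoxia replicates 4 and 5 (0.0730). Fasn was at 44.0, 16.4, 25.3, 56.2 and 44.6 FPKM in control replicates 1 to 5 and at 18.1, 8.61, 9.94, 32.2 and 10.4 FPKM in hypoxia replicates 1 to 5 (-1.26, adjusted p = 0.0726, and -1.52, adjusted p = 0.0437, without hypoxia replicates 4 and 5). Scd1 was at 203.5 ± 87.4 and 83.8 ± 24.0 FPKM (-1.19, adjusted p = 0.0655). The fat markers given beside Thrsp apply to Fasn and Scd1 as well.

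Of 13 tested Klf factors other than Klf9, 0 passed with all libraries and 1 rose without hypoxia replicates 4 and 5. The most abundant, Klf15, was at 30.4 ± 6.16 and 38.7 ± 10.8 FPKM (SD, n = 5 each; log2 fold change 0.32, limma adjusted p = 0.328). Klf2 was at 12.6 ± 3.15 and 22.6 ± 15.4 FPKM (0.66, adjusted p = 0.200). Hypoxia replicate 5 had Klf2 at 49.8 FPKM and the other hypoxia libraries at 12.8 to 17.8 FPKM. The log2 fold change of Klf2 was 0.32 without hypoxia replicates 4 and 5. Of 10 glucocorticoid-responsive genes, listed because Klf9 also responds to that hormone, 2 rose and 0 fell. Tsc22d3, an anti-inflammatory regulator, rose from 10.6 ± 2.87 to 24.0 ± 5.48 FPKM (1.15, adjusted p = 0.00689). Per1, which is also a clock gene, rose as well (1.25, adjusted p = 0.00731).

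Among 26 tested selenoproteins and genes of selenocysteine handling, 0 rose and 5 fell (median -0.11), where 3.66% of all tested genes rose and 7.79% fell. Without hypoxia replicates 4 and 5, 1 rose and 4 fell. Scly, which recovers selenium from selenocysteine, fell from 23.2 ± 1.66 to 16.3 ± 2.26 FPKM (SD, n = 5 each; log2 fold change -0.51, limma adjusted p = 0.0126). Selenop, the selenium carrier of plasma, fell from 761.4 ± 107.0 to 492.8 ± 73.7 FPKM (-0.63, adjusted p = 0.0197), a call lost without control replicate 2 (adjusted p = 0.0568) or control replicate 5. Msrb1, a methionine sulfoxide reductase, fell from 107.9 ± 9.83 to 82.8 ± 5.37 FPKM (-0.38, adjusted p = 0.0230). Txnrd1, the cytosolic thioredoxin reductase, fell from 30.4 ± 1.46 to 23.6 ± 3.23 FPKM (-0.37, adjusted p = 0.0366; -0.24 without hypoxia replicates 4 and 5). Msrb1 lost its call without control replicate 1, 2, 3 or 5 or hypoxia replicate 4 (adjusted p up to 0.0642, without control replicate 2). Txnrd1 kept it when hypoxia replicate 2, 3 or 5 was omitted and lost it with any other library omitted (up to 0.0939, without control replicate 1). The fifth gene was Trnau1ap, a factor of selenocysteine synthesis named after its values were seen (-0.21, adjusted p = 0.0456), whose call stayed when control replicate 4 or hypoxia replicate 5 was omitted and was lost with any other library omitted (up to 0.111, without control replicate 3). Its adjusted p was 0.0508 without hypoxia replicates 4 and 5. The log2 difference of Dio1, itself a selenoprotein gene, was -1.79, and the lowest among the tested genes of this list was that of Selenop.

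Of 6 genes listed as neighbours of Thra and Thrb, 1 fell. Msl1, a subunit of a histone acetyltransferase complex encoded near Thra, fell from 13.3 ± 0.302 to 10.6 ± 1.29 FPKM (SD, n = 5 each; log2 fold change -0.33, limma adjusted p = 0.0275), a call that stayed when control replicate 4 or hypoxia replicate 2 or 5 was omitted and was lost with any other library omitted (adjusted p up to 0.0730, without control replicate 1).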

How the data were processed

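Kidney RNA of 5 control and 5 hypoxia samples was grouped by the treatment label. The authors deposited FPKM values per gene; alignment used HISAT2 2.0.5 and the build is listed as hg38, a human one, both per the submitters' processing notes. The identifiers are mouse, and 99.4% of the 55141 found in GENCODE M21 had identical GRCm38 coordinates, all 6 genes included. The sources used here do not give the counting tool. The deposited table also gives gene length in bases (an other unit), and dividing FPKM times length by the worth of 1 read gave whole reads for 100% of values (tolerance 0.05). Read counts and zeros carry counting error besides the variation between libraries.

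Genes averaging 0.5 FPKM or more were tested with limma 3.58.1 (R 4.3.3) on log2(FPKM + 0.5) (trend and robust, group only, two-sided, Benjamini-Hochberg over all tested genes, threshold 0.05). The test was tried on simulated data. Figures used matplotlib 3.10.9 in Python 3.11.15. The 6 genes and the lists were chosen with earlier results of these data known. Named beside the 6 are Nr1d1, Nr1d2, the 3 genes of nearest profile for each of the 6 with an SD above 0.5, and from each list up to 4 called genes with the smallest p, or the 2 most abundant where none was called. A gene that these rules name is not reported here. Alternatives covered pseudocount, filter, scaling, error model, replicate block, voom and the omission of libraries. Summing proximal tubule markers without Kap, and Ucp1 and Cidea apart from the other fat markers, was decided after seeing the data. Every value column was used.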

Additional observations from a re-analysis of the deposited data

Results flagged for a closer look

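Outlying values were sought in both groups of 27 genes, the 6 genes and those named from the lists, as a gap to the nearest library of more than 0.71 of the range of the 5 libraries (Dixon's test at the 95% level). Chance alone flags about 1 in 20 groups, and 5 of 54 were flagged. Control replicate 4 stood above the other controls in Thra (17.97 FPKM), Gpd2 (20.3 FPKM) and Per1 (8.64 FPKM). Hypoxia replicate 5 stood below the other hypoxia libraries in Thra (8.62 FPKM) and above them in Klf2 (49.8 FPKM).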

How the results depend on the processing

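Of 120 alternative values of the 6 fold changes, 109 kept direction and call, 8 lost a call (all of Me1, among them those without a filter on low values and with the replicate block) and 3 changed sign (all of Klf9, against -0.053 in the report: 0.016 with limma voom, 0.12 without hypoxia replicates 4 and 5, and 0.081 without hypoxia replicate 5, the upper end of its range from -0.13 when single libraries were left out). Without a filter on low values, 966 genes in all, 1 of the 6 and 10 of the pathway lists were called, against 1748, 2 and 17. A replicate block on the numbers in the titles gave 999, 1 and 11. Those numbers share no stated source, same-numbered libraries correlated at -0.077 to 0.086 in their deviations from the group means, and 1 of 5 controls matched its own number best. Leaving out each library in turn gave 824 (without control replicate 1) to 2724 (without hypoxia replicate 5) genes, 1 to 2 of the 6 and 7 (without control replicate 5) to 29 (without hypoxia replicate 5) of the lists; the count of genes moved by over 1.5 times also without control replicate 2, 3 or 5 or hypoxia replicate 4, and that of the lists also without control replicate 1, 2 or 3. The log2 ratio of Thra to Thrb was 1.28 in controls alone and 1.28 in hypoxia alone, where 5 libraries cannot reach 0.05, 1.22 to 1.32 without single libraries and 1.33 without hypoxia replicates 4 and 5. Dio2, Dio3 and Hr were below the filter on mean FPKM and were not tested.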

Other observations

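Hr, a corepressor whose gene is a direct target of thyroid hormone in brain and skin, was below the filter and was looked at after the other values were seen. It had 56, 29, 30, 96 and 49 reads in control replicates 1 to 5 and 19, 24, 9, 28 and 30 reads in hypoxia replicates 1 to 5, or 0.437 ± 0.209 and 0.178 ± 0.0655 FPKM (SD, n = 5 each). In FPKM no hypoxia library reached the lowest control (0.238 against 0.255 FPKM). Control replicate 3, which had no Ucp1 reads, had 30 Hr reads, as did hypoxia replicate 5. Among controls, replicate 4 had the most reads of both Hr and Ucp1, whereas the fewest Hr reads were in replicate 2. The part of brown fat in the Hr reads was not tested. Iyd, an enzyme that recovers iodide from iodotyrosines, was at 40.8 ± 3.88 and 44.3 ± 10.3 FPKM (limma adjusted p = 0.762, and 0.0476 without hypoxia replicates 4 and 5, where its log2 fold change was 0.31).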
